A study of Mus musculus with 12 samples.

Results

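The enzymes described here make or break down asparagine, proline, alanine and glutamine, amino acids that lie close to glutamate and the tricarboxylic acid cycle. The set held 7 genes, of which 6 were measured: Asns, Aldh18a1, Glul, Gpt2, Oat and Prodh were read by 15 probe sets, out of 45037 probe sets and 18193 singly annotated genes on the array. A probe set is a group of short probes on the array that reads 1 transcript. Pycr1 was assigned no probe set by the array annotation used here and is not analysed. Membership went by gene symbol alone, every probe set annotated to exactly 1 of the symbols being taken.

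The data were log2 signals from Affymetrix expression arrays for whole CD1 mouse hearts (an outbred stock), with 500 ng of total RNA per array. The groups were DN-MCU adults and WT littermate adults at 42 days, all labelled male, and DN-MCU neonates and WT littermate neonates at 1 day, of unknown sex, with 3 arrays each labelled as biological replicates. DN-MCU stands for a dominant-negative MCU, a disabled version of the subunit that forms the pore of the mitochondrial calcium uniporter. The series calls the inhibition myocardial; the sources used here do not name the promoter that drives the construct. In whole-heart RNA, fewer cells of a type and less RNA per cell cannot be told apart.

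Asparagine synthetase moves the amide nitrogen of glutamine to aspartate and is a classical target of the integrated stress response, in which the transcription factor ATF4 turns on genes for amino acid supply. Proline is made from glutamate by way of pyrroline-5-carboxylate and is oxidised back along the same intermediate by Prodh, so the synthetic and catabolic enzymes stand on opposite arms of a short route. In heart muscle, alanine transaminases and glutamine synthetase exchange nitrogen between glutamate, pyruvate and ammonia.

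The labels were first set against the arrays. Of the 2 Mcu probe sets, the one that was dim in WT hearts lay between 8.85 and 10.41 in DN-MCU adults against 2.45 to 4.55 in WT adults, and between 8.44 and 9.28 in DN-MCU neonates against 2.90 to 3.31 in WT neonates. The other Mcu probe set overlapped, at 7.39 to 8.14 in DN-MCU adults and 7.41 to 7.84 in WT adults. All 7 cardiomyocyte markers were bright, with array means between 14.55 and 15.10. Adult arrays scattered more than neonatal ones: the median SD of a probe set was 0.400 in DN-MCU adults, 0.226 in WT adults, 0.141 in DN-MCU neonates and 0.132 in WT neonates. DN-MCU adult 3 and WT adult 1 stood apart, with mean correlations to their own groups of 0.931 and 0.970 against 0.957 or more in the other DN-MCU adults and 0.980 or more in the other WT adults.

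Asns rose more than any other gene of the set. Its brighter probe set, 1451095_at, read 11.95, 11.42 and 12.21 in the DN-MCU adults against 5.83, 4.91 and 5.20 in the WT adults. The lowest DN-MCU adult therefore lay more than 5 log2 units above the highest WT adult. The log2 difference was 6.55 (SE 0.32, 95% CI 5.76 to 7.33), or 93.6-fold, with a limma adjusted p of 0.00211, and 4 of the 24176 probe sets tested had a larger rise. The second Asns probe set, 1433966_x_at, read 11.73, 11.13 and 12.28 in DN-MCU adults against 5.14, 4.80 and 4.16 in WT adults. Its difference was 7.01 (SE 0.38), or 129-fold (limma adjusted p = 0.00314), with 1 larger rise on the array. The suffix _x_at marks a set in which some probes also match other transcripts, and both sets gave the same picture.

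In neonates the same gene lay higher in DN-MCU hearts, but by less. The brighter probe set read 9.79, 10.88 and 9.14 in DN-MCU neonates against 7.14, 7.26 and 7.19 in WT neonates. The groups did not overlap, and the DN-MCU neonates spread widely (SD 0.88) around a mean of 9.94, while the WT neonates (mean 7.19) spread by 0.06. The difference of 2.74 (SE 0.41, 95% CI 1.74 to 3.74), or 6.69-fold, did not pass over all probe sets (limma adjusted p = 0.265, unadjusted p = 0.000465), and 9 probe sets had a larger one. The adult effect exceeded the neonatal effect by 3.81 (SE 0.56; limma adjusted p = 0.0133). That adjusted p was 0.0529 without DN-MCU neonate 1 and 0.0507 without WT neonate 2, and the second probe set, whose effects differed by 4.13 (SE 0.59; limma adjusted p = 0.0113), stayed at 0.0471 or less without any 1 array. WT adults themselves lay below WT neonates by a log2 difference of -1.88 (SE 0.24; limma adjusted p = 0.00107), whereas the mean of DN-MCU adults lay 1.92 above that of DN-MCU neonates. The order of groups for Asns was thus DN-MCU adult, DN-MCU neonate, WT neonate and WT adult, with no overlap between any neighbours on the brighter probe set.

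**Figure D1:**
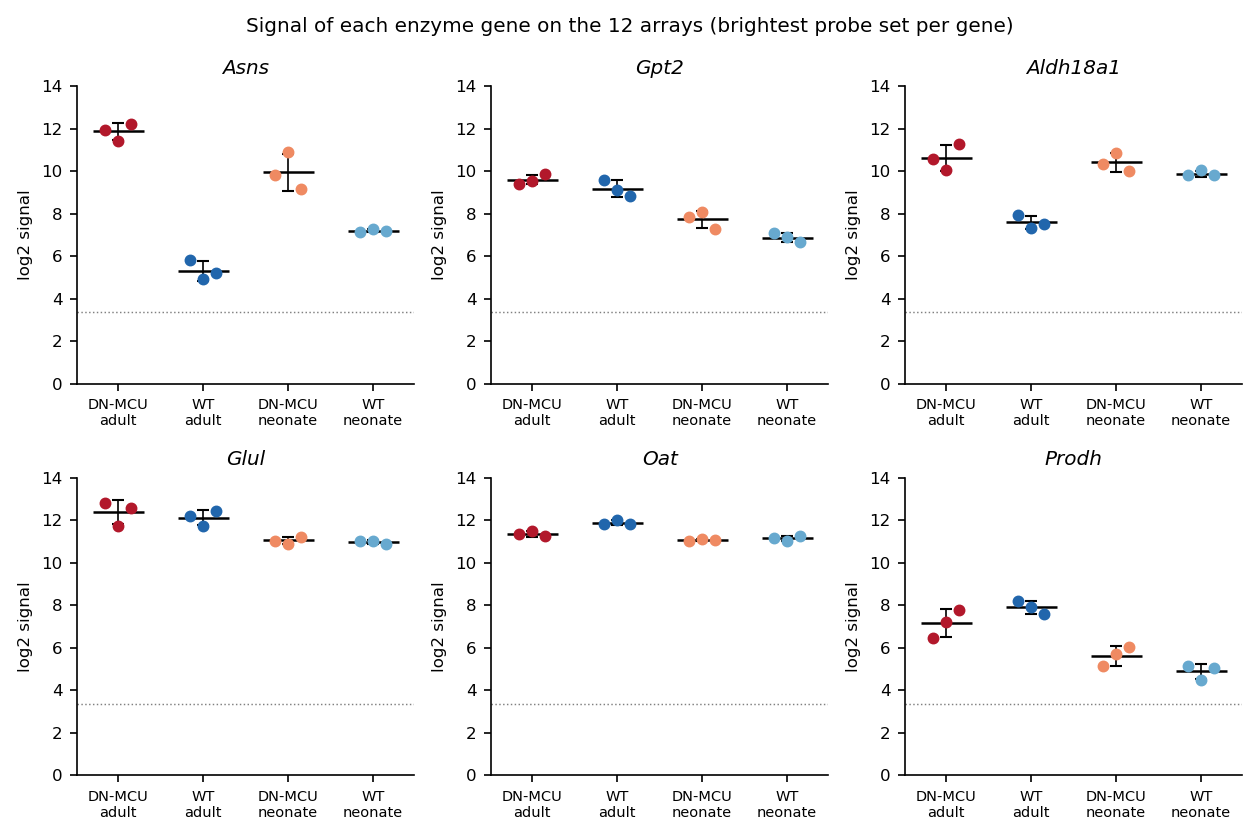
Log2 signal of the brightest probe set of each of the 6 genes, with a point for each array, the group mean as a bar and the SD as whiskers (n = 3 per group); the dotted line at 3.35 is the filter level. Asns separates all 4 groups, Aldh18a1 is lowest in WT adults (mean 7.59), and Glul, Oat, Prodh and Gpt2 are all higher in WT adults than in WT neonates.

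Because Asns and Aldh18a1 were the genes that passed in adults, the 250 bases before their starts are shown, from RefSeq on GRCm38.p6 (all 7 symbols matched), both read 5′ to 3′ on the minus strand. Asns (NCBI gene 27053) lies on chr6 and the stretch is chr6:7693210-7693459; Aldh18a1 (56454) lies on chr19 and the stretch is chr19:40588464-40588713. Capitals mark TGATGNAA, the core of the C/EBP-ATF response element to which ATF4 binds in partnership with C/EBP proteins.
Asns: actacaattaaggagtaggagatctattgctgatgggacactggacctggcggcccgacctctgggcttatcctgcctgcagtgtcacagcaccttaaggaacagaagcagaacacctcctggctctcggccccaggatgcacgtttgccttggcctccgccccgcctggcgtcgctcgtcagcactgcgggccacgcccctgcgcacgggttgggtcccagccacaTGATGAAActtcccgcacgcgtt
Aldh18a1: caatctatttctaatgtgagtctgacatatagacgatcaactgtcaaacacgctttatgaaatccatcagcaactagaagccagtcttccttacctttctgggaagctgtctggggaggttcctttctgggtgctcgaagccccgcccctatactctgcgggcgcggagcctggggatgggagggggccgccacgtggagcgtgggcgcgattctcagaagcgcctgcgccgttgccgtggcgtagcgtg
The Asns stretch holds the site TGATGAAA, whose first base is at -23 from the annotated start. No match to these letters, on either strand, is in the window of Aldh18a1, nor in those of Gpt2, Glul, Oat and Prodh. The Pycr1 window holds TGATGCAA, first base at -103. Over the whole table, 1304 of 32851 promoter windows (3.97%) hold the motif on either strand, counting 250 bases before and 50 after each start. A match is a run of letters and not evidence of binding in these hearts.

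Proline synthesis was read through Aldh18a1, which encodes pyrroline-5-carboxylate synthase, the entry enzyme from glutamate. Its brightest probe set, 1437325_x_at, read 10.54, 10.03 and 11.26 in DN-MCU adults against 7.93, 7.34 and 7.50 in WT adults. Every DN-MCU adult was at least 2 log2 units above every WT adult. The rise was 3.02 (SE 0.35, 95% CI 2.17 to 3.88), or 8.12-fold, with a limma adjusted p of 0.0376. The difference stayed between 2.70 and 3.31 when any 1 adult array was left out, but the adjusted p exceeded 0.05 without DN-MCU adult 1 (0.171), DN-MCU adult 2 (0.0530), WT adult 1 (0.127), WT adult 2 (0.225) or WT adult 3 (0.242), and it was 0.0591 without both arrays that stood apart.

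The other Aldh18a1 probe sets differed in size. The only set of the gene with no cross-matching suffix, 1415836_at, read 6.60, 6.38 and 7.87 in DN-MCU adults against 4.51, 4.34 and 4.53 in WT adults. These groups did not overlap, and the difference of 2.49 (SE 0.40) did not pass (limma adjusted p = 0.0871). 1435855_x_at and 1437333_x_at differed by 3.06 (SE 0.45; limma adjusted p = 0.0675) and 2.61 (SE 0.47; limma adjusted p = 0.104), again with no overlap. Without DN-MCU adult 3, these 3 sets passed, with limma adjusted p of 0.0194 for 1415836_at, 0.0251 for 1435855_x_at and 0.0455 for 1437333_x_at. With any other single adult array left out none of the 3 passed, and the adjusted p of these Aldh18a1 sets reached 0.393, 0.341 and 0.433 in the same order. Without both arrays that stood apart, 1435855_x_at passed (limma adjusted p = 0.0404), while 1415836_at (0.0586) and 1437333_x_at (0.0828) did not. 1437620_x_at stood apart from these 4, at 6.35, 6.42 and 7.69 in DN-MCU adults against 6.33, 6.35 and 5.20 in WT adults. Its difference of 0.86 (SE 0.49; limma adjusted p = 0.639) came with overlapping groups, so 1 of the 5 probe sets did not show the separation.

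Aldh18a1 was lowest in WT adults, and its values in DN-MCU adults lay within or close to the range of the neonates. The brightest set averaged 10.61 ± 0.61 in DN-MCU adults, 7.59 ± 0.31 in WT adults, 10.40 ± 0.43 in DN-MCU neonates and 9.87 ± 0.13 in WT neonates (SD, n = 3 each). The 2 highest neighbours in that order, DN-MCU adults and DN-MCU neonates, overlapped, and the low value was that of WT adults, which lay below WT neonates by a log2 difference of -2.28 (SE 0.18; limma adjusted p = 0.000164). DN-MCU neonates read 10.33, 10.87 and 10.02 against 9.80, 10.03 and 9.79 in WT neonates, with 1 DN-MCU value just under the highest WT value. The neonatal difference was 0.53 (SE 0.22, 95% CI 0.00267 to 1.06; limma adjusted p = 0.681). The adult effect exceeded the neonatal one by 2.49 (SE 0.44; limma adjusted p = 0.0326). Once neonatal arrays were paired by number, that last adjusted p was 0.0797, while for Asns 1451095_at it was 0.0299. It also exceeded 0.05 when any of 8 of the 12 arrays was left out, up to 0.108 without DN-MCU neonate 1.

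The final reduction of proline synthesis is made by the pyrroline-5-carboxylate reductases. Of these, Pycrl was the 1 read here. It stood at 6.91, 7.20 and 8.01 in DN-MCU adults against 6.98, 6.56 and 6.36 in WT adults. The groups overlapped and the difference of 0.74 (SE 0.34, 95% CI -0.08 to 1.56) did not pass (limma adjusted p = 0.537). Without the 2 arrays that stood apart the adult Pycrl difference was 0.59. In neonates Pycrl read 8.27, 8.22 and 7.93 for DN-MCU against 7.92, 7.86 and 7.90 for WT. The neonatal groups did not overlap, by a narrow margin, and the neonatal difference did not pass either.

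Prodh, which encodes proline dehydrogenase of the mitochondrial inner membrane and begins proline oxidation, had differences of opposite sign at the 2 ages. It read 6.45, 7.19 and 7.77 in DN-MCU adults against 8.17, 7.91 and 7.59 in WT adults. DN-MCU adult 3, the array that stood apart, lay within the WT range, and the other DN-MCU adults lay below it. In neonates it read 5.11, 5.67 and 6.02 for DN-MCU against 5.13, 4.48 and 5.03 for WT, with overlap by 1 array. The log2 difference was -0.75 in adults (SE 0.37, 95% CI -1.65 to 0.14; limma adjusted p = 0.577) and 0.72 in neonates (SE 0.27, 95% CI 0.05 to 1.38; limma adjusted p = 0.664). Without both arrays that stood apart the adult Prodh difference was -0.93 (limma adjusted p = 0.216). The difference of effects, -1.47 (SE 0.49), did not pass (limma adjusted p = 0.307, unadjusted p = 0.0122). Aldh4a1, which completes the oxidation to glutamate, was dim, at 3.37 ± 0.25 in DN-MCU adults and 4.17 ± 0.52 in WT adults (SD, n = 3 each). These groups did not overlap, and the difference did not pass (limma adjusted p = 0.444). Without both arrays that stood apart the adult Aldh4a1 difference was -0.64. Its neonatal means were 3.05 in DN-MCU and 3.07 in WT hearts. Every neonate lay under the filter level, so Aldh4a1 entered the tests through its adult values alone.

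Oat, ornithine aminotransferase, links ornithine to pyrroline-5-carboxylate. It read 11.33, 11.50 and 11.24 in DN-MCU adults against 11.81, 11.995 and 11.81 in WT adults. All 3 DN-MCU adults lay below all 3 WT adults, and the log2 difference of -0.52 (SE 0.16, 95% CI -0.91 to -0.12) did not pass (limma adjusted p = 0.336, unadjusted p = 0.0181). With all 12 arrays in 1 fit, where 1 spread for all groups understates the adult error, the limma adjusted p of Oat was 0.0468. Without the 2 arrays that stood apart the difference was -0.49 (limma adjusted p = 0.191). In neonates Oat read 10.99, 11.11 and 11.07 for DN-MCU against 11.16, 10.998 and 11.25 for WT, with overlap and a difference of -0.08 (SE 0.09; limma adjusted p = 0.872).

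**Figure D2:**
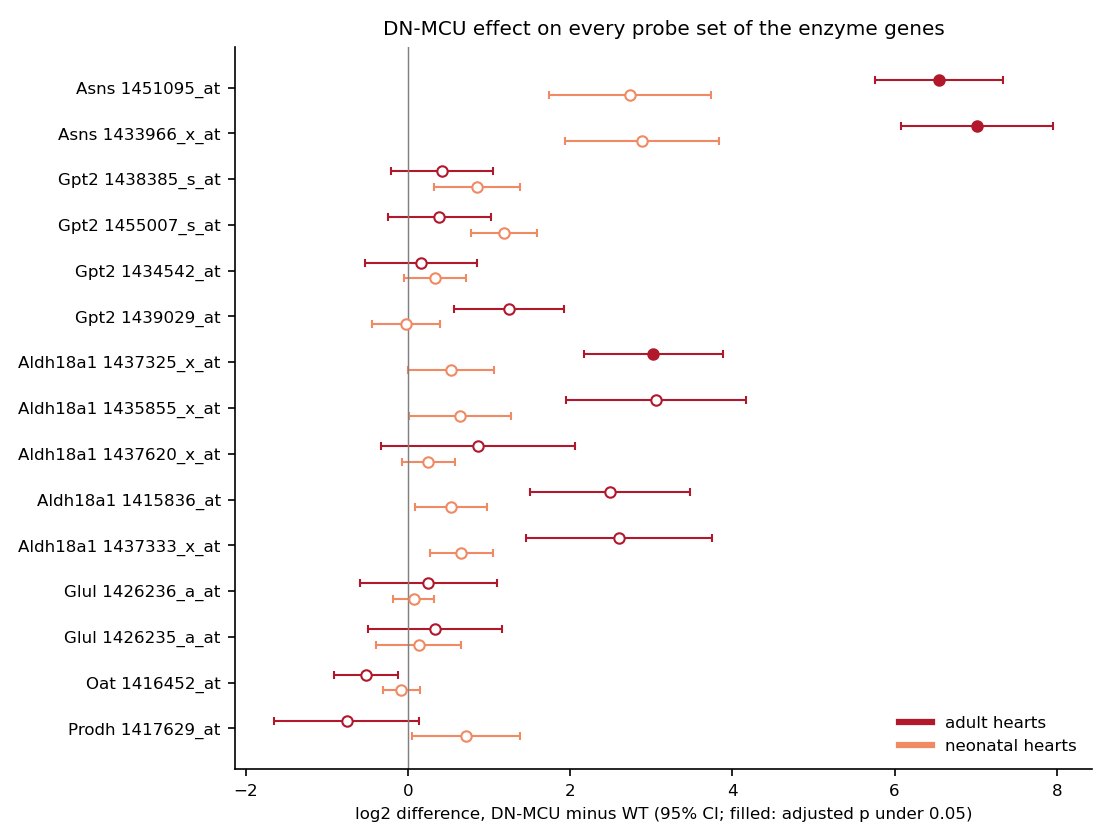
Log2 difference, DN-MCU minus WT, for all 15 probe sets in adult and neonatal hearts, with 95% confidence intervals from limma (n = 3 arrays per group); filled points passed at an adjusted p under 0.05 over all probe sets. Both Asns sets and 1 of 5 Aldh18a1 sets are filled, in adults alone; Prodh has differences of -0.75 in adults and 0.72 in neonates.

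Gpt2, mitochondrial alanine transaminase, was read by 4 probe sets. The brightest, 1438385_s_at, read 9.41, 9.53 and 9.85 in DN-MCU adults against 9.60, 9.10 and 8.80 in WT adults. In neonates it read 7.82, 8.05 and 7.28 for DN-MCU against 7.07, 6.87 and 6.66 for WT. Adult groups overlapped and neonatal groups did not. Its log2 difference was 0.43 in adults (SE 0.26, 95% CI -0.20 to 1.05; limma adjusted p = 0.668) and 0.85 in neonates (SE 0.22, 95% CI 0.32 to 1.38; limma adjusted p = 0.532). The next set, 1455007_s_at, showed the gene's clearest neonatal separation.

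That set read 7.04, 7.27 and 6.68 in DN-MCU neonates against 5.86, 5.92 and 5.66 in WT neonates, a difference of 1.18 (SE 0.17), or 2.27-fold. In all, 31 probe sets had a larger neonatal rise, and the adjusted p was 0.265 in limma (unadjusted p = 0.000318). The same set differed by 0.39 (SE 0.26; limma adjusted p = 0.708) in adults. A test of the adult against the neonatal effect gave -0.80 (SE 0.32; limma adjusted p = 0.458), so the ages were not shown to differ. 1434542_at differed by 0.16 in adults and 0.34 in neonates, both with overlap. The dimmest, 1439029_at, read 4.66, 4.85 and 4.87 in DN-MCU adults against 4.03, 3.56 and 3.03 in WT adults, a difference of 1.25 (SE 0.28; limma adjusted p = 0.174). This Gpt2 set passed in adults with all 12 arrays in 1 fit, which understates the adult error (limma adjusted p = 0.0159). It also passed with array weights (limma adjusted p = 0.0418), but not without the 2 arrays that stood apart (0.104). In neonates it lay under the filter level, at 2.71 ± 0.30 in DN-MCU and 2.74 ± 0.16 in WT hearts (SD, n = 3 each). Its adult effect exceeded its neonatal one by 1.27 (SE 0.34), opposite in sign to the -0.80 of 1455007_s_at. The limma adjusted p was 0.170 in the main fit, 0.0268 with array weights and 0.0318 without the 2 arrays. The set entered the tests through its adult values and lay under the filter level in every neonate. This test therefore cannot decide whether the Gpt2 effect differs with age.

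Its cytosolic counterpart Gpt stood lower in DN-MCU adults, at 7.07, 8.49 and 9.31 against 9.97, 10.30 and 10.20 in WT adults. Every DN-MCU value was below every WT value, but the DN-MCU adults ranged over more than 2 log2 units. The log2 difference of -1.87 (SE 0.55, 95% CI -3.22 to -0.51) did not pass (limma adjusted p = 0.309), and it was -2.47 without the 2 arrays that stood apart. In neonates Gpt averaged 6.22 ± 0.33 in DN-MCU and 5.87 ± 0.51 in WT hearts (SD, n = 3 each).

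Glul, glutamine synthetase, which joins ammonia to glutamate, overlapped between genotypes at both ages. Its brighter probe set, 1426236_a_at, read 12.81, 11.72 and 12.55 in DN-MCU adults against 12.20, 11.72 and 12.42 in WT adults. In neonates it read 11.03, 10.89 and 11.20 for DN-MCU against 11.03, 10.9997 and 10.87 for WT. The differences were 0.25 (SE 0.35, 95% CI -0.59 to 1.09) in adults and 0.07 (SE 0.10, 95% CI -0.18 to 0.33) in neonates, with limma adjusted p of 0.878 and 0.899. The second set, 1426235_a_at, differed by 0.33 (SE 0.34) and 0.13 (SE 0.22). Glud1, glutamate dehydrogenase, averaged 10.37 ± 0.42 in DN-MCU adults and 11.02 ± 0.18 in WT adults (SD, n = 3 each; limma adjusted p = 0.467), with no overlap. Its log2 difference was -0.65, and -0.51 without the 2 arrays that stood apart.

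Counted over probe sets, 3 of 15 passed as higher in adults and 0 as lower, beside 0.389% and 0.0745% of all 24176 tested (0.463% in either direction). All 15 member probe sets passed the filter, Gpt2 1439029_at through its adult values alone. That set is among the 7 higher sets of both adult counts that follow. Groups did not overlap for 7 higher sets and 1 lower set, beside 8.7% and 8.46% of all; at an unadjusted p under 0.05 there were also 7 higher and 1 lower, beside 5.37% and 4.97%. In neonates 0 of 15 passed in limma, beside 0.00414% of all (1 probe set, or 0 with arrays paired by number). That 1 was the Mcu probe set that was dim in WT hearts, with a difference of 5.67 (limma adjusted p = 0.00461). At an unadjusted p under 0.05, 9 of 15 were higher and 0 lower in neonates, beside 4.45% and 2.83%. Without overlap 6 were higher and 0 lower, beside 7.51% and 5.13%. Between ages, 3 of 15 had an effect that was higher in adults and 0 one that was lower, beside 0.587% and 0.199% (0.786% in either direction). At an unadjusted p under 0.05 these were 7 and 3, beside 4.56% and 4.67%, and Gpt2 1439029_at is among the 7. Since the genes were chosen with earlier results known and several probe sets read the same gene, these counts are descriptions. The median difference of the 6 genes was 0.34 in adults and 0.62 in neonates, against -0.02 and 0.01 over all probe sets.

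**Figure D3:**
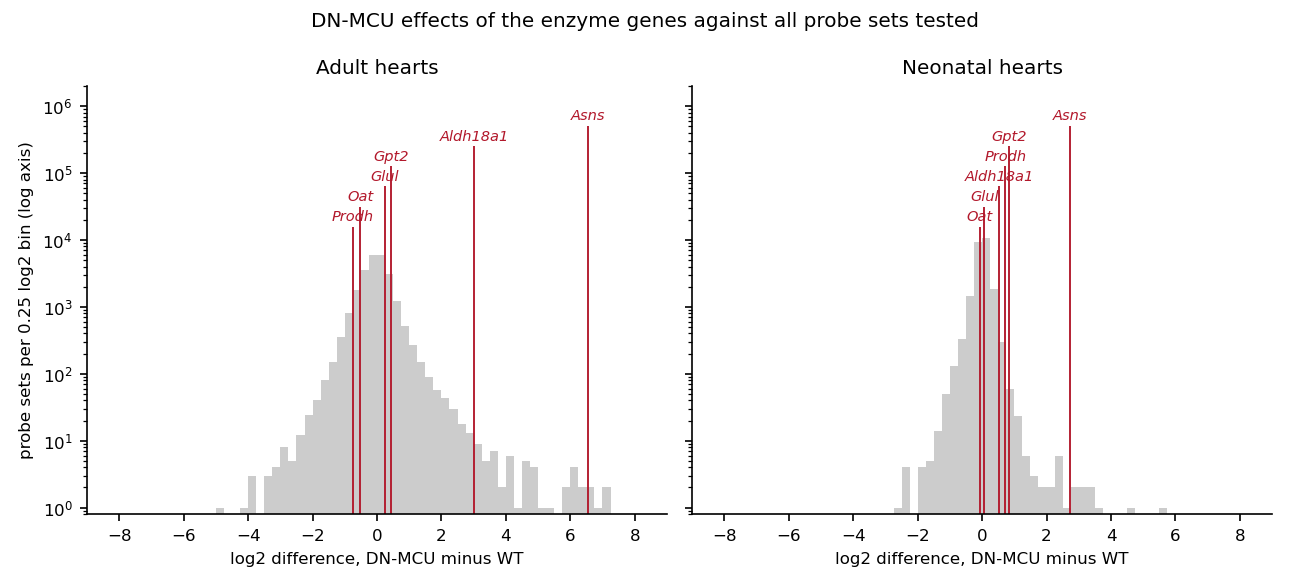
Number of probe sets per 0.25 log2 bin of the DN-MCU minus WT difference (log axis, 24176 probe sets, grey), with the brightest probe set of each of the 6 genes as a red line; line heights only separate the labels. Asns lies in the far upper tail at both ages, at 6.55 in adults and 2.74 in neonates, and Aldh18a1 does so in adults (3.02).

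The difference with age was taken from WT hearts, at 1 and 42 days only. The WT adults were labelled male and the WT neonates were of unknown sex, so a part of sex cannot be told apart from age. WT adults were higher than WT neonates for Prodh, Gpt2, Glul and Oat and lower for Asns and Aldh18a1, and each gene's brightest set passed. Prodh differed most, at 7.89 ± 0.29 in WT adults and 4.88 ± 0.35 in WT neonates (SD, n = 3 each), a log2 difference of 3.01 (SE 0.23; limma adjusted p = 0.000141). Gpt2 was 4.92-fold higher (2.30, SE 0.23; limma adjusted p = 0.000401) and Oat 1.66-fold higher (0.73, SE 0.12; limma adjusted p = 0.00323). The 2 Glul sets gave unequal sizes, 1.14 (SE 0.19) and 2.77 (SE 0.24). Of the 15 probe sets 8 were higher and 6 lower in WT adults, beside 22.6% and 28.2% of all (50.8% in either direction), and 1 Aldh18a1 set did not pass. The same 8 and 6 had non-overlapping groups, beside 29.2% and 36.3%, and an unadjusted p under 0.05, beside 25.8% and 32.1%. Among the 8 higher sets, Gpt2 1439029_at (0.80, SE 0.26; limma adjusted p = 0.0422), lay under the filter level in every neonate and entered the tests through its adult values; its call was lost when any of 5 of the 6 WT arrays was left out (up to 0.125), and 7 higher sets remain without it.

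Mean levels of marker lists of other cells also differed between ages and, for some lists, did not overlap between neonatal genotypes. Array means of the 4 of 6 adipocyte markers with a probe set ranged from 4.23 to 6.61 in DN-MCU adults and 5.10 to 6.18 in WT adults, against 2.16 to 2.24 in DN-MCU neonates and 2.17 to 2.20 in WT neonates, where the means of Adipoq, Cidec, Retn and Lep all lay under the filter level. In both adult groups the means of Retn and Lep lay under that level too, and those of Adipoq and Cidec above it. The 4 of 5 macrophage markers with a probe set stood at 9.16 to 9.86 in DN-MCU adults, 9.07 to 9.51 in WT adults, 6.45 to 6.84 in DN-MCU neonates and 6.94 to 7.01 in WT neonates. The 6 epicardial markers ranged from 5.14 to 5.48 in DN-MCU adults, 4.90 to 7.04 in WT adults, 6.83 to 7.19 in DN-MCU neonates and 7.60 to 8.31 in WT neonates. The neonatal genotypes thus did not overlap in the array means of the epicardial or macrophage lists. Singly, Wt1, Cd68 and C1qa overlapped between neonatal genotypes and the other markers of these lists did not. None of them passed in neonates (lowest limma adjusted p = 0.516, for Upk3b). Array means of the erythroid, endothelial and fibroblast lists overlapped between genotypes at both ages. The erythroid list had a probe set for 4 of 6 markers, and Hba-a1 and Hba-a2 lay under the filter level. Singly, without overlap, Alas2 was lower and Pecam1 higher in DN-MCU neonates. Tek was lower in DN-MCU hearts at both ages, and Pdgfra was lower in DN-MCU adults. The other markers of these 3 lists overlapped, and no marker of them passed between genotypes. The part of these cells in the differences by age or genotype was not tested. Without DN-MCU adult 3 and WT adult 1 the adult difference of Asns was 6.63 for 1451095_at and 6.95 for 1433966_x_at.

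The neighbouring enzymes were taken from a list of 31 symbols around glutamate, glutamine, aspartate, arginine and proline. A probe set was annotated for 27, and 22 passed the filter. In adults 0 of the 22 passed in either direction in limma; at an unadjusted p under 0.05, 2 were higher and 4 lower, beside 5.37% and 4.97% of all probe sets, and with array weights 1 passed. Aldh4a1, among the 4 lower, entered the tests through its adult values alone and lay under the filter level in every neonate. The median adult difference of the 22 genes was 0.02. Asl, argininosuccinate lyase (1.09, SE 0.35), lay at the upper end and Gpt at the lower. In neonates 0 passed in limma (0 higher and 2 lower at an unadjusted p under 0.05, beside 4.45% and 2.83%), with a median of 0.03. Between WT ages 6 were higher and 10 lower in adults, beside the 22.6% and 28.2% given above.

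**Figure D4:**
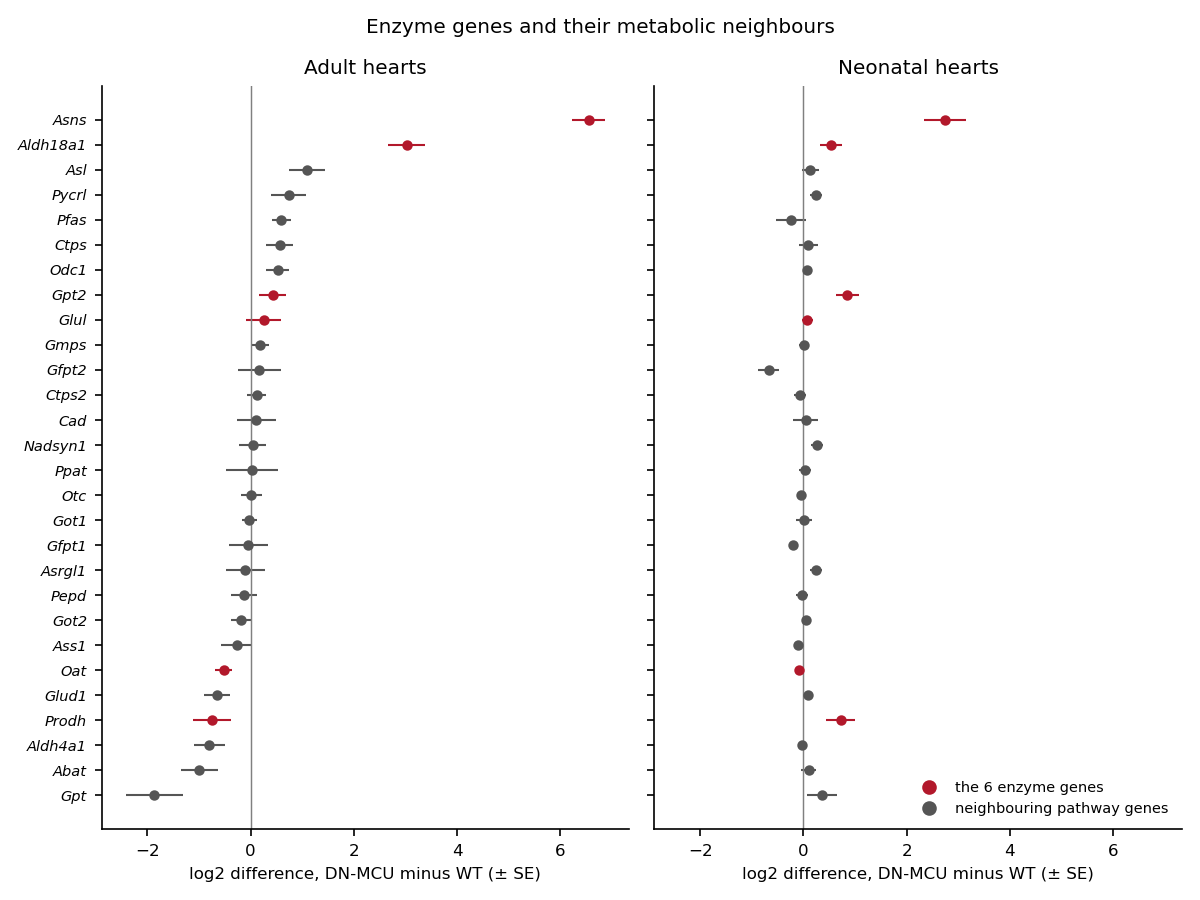
Log2 difference, DN-MCU minus WT, ± SE from limma for the 6 genes (red) and the 22 neighbouring genes that passed the filter (grey), ordered by the adult difference (n = 3 arrays per group). Asns and Aldh18a1 lie above every neighbour in adults, and Gpt (-1.87) lies below all others.

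Profiles were also compared across the array. For each gene, the 3 others were taken whose log2 profile over the 12 arrays, centred on its own mean, had the smallest root mean square difference, among 11806 genes. Asns was most like Mthfd2 (0.50 log2 units), a mitochondrial folate enzyme, then Phgdh (0.62), the first enzyme of serine synthesis, and Slc7a3 (0.86), a cationic amino acid transporter; the median over all genes was 2.59. Aldh18a1 was most like Pck2 (0.27), mitochondrial phosphoenolpyruvate carboxykinase, then Comtd1 (0.34) and Kif26b (0.41), against a median of 1.29. The adult differences, DN-MCU minus WT, of Pck2, Comtd1 and Kif26b were 2.71, 2.76 and 2.42; the choice by profile fixes that they resemble that of Aldh18a1.

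Gpt2 was most like Stc2 (0.21), a secreted glycoprotein, then Herpud1 (0.29), a component of endoplasmic reticulum protein degradation, and Atg13 (0.32), an autophagy factor, against a median of 1.25. For Prodh the nearest were Slco3a1 (0.30), Perm1 (0.32) and Slc35e1 (0.35), against 1.37. Glul had Ddrgk1 (0.23), Grap (0.24) and Gab2 (0.24), against 0.85, and Oat had Wdr33 (0.10), Idh1 (0.11) and Clcc1 (0.11), against 0.59. The 12 arrays share groups, so this likeness is a description.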

How the data were processed

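The authors deposited signals for 45101 probe sets on 12 arrays, taken here as log2 values. That the scale is log2 was judged from the values' range; the normalization method was not found in the labels. The submitters' processing notes list Partek without a role. Genes come from the platform annotation. After removing 64 control probe sets, a set entered the tests when at least 3 of its 12 values lay above 3.35, the median of all values, and 24176 did.

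limma 3.58.1 in R 4.3.3 was fitted to the 2 groups of each comparison, because earlier results had shown that adult arrays spread more; all 12 arrays entered the difference of effects. Benjamini-Hochberg adjustment covered all tested probe sets (threshold 0.05). SE and 95% CI are from the fit, SD from 3 arrays, whose small number limits precision. The code was tested on simulated data. Alternatives are in the closing section.

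Same-numbered neonatal DN-MCU and WT arrays deviated together (correlations 0.133, 0.223 and 0.283), so they were treated as possible pairs. Same-numbered adult arrays did not (-0.381, 0.410 and -0.428). DN-MCU adult 3 and WT adult 1, the arrays that stood apart, deviated together from their groups (0.579). Members and lists were chosen with earlier results of these data known. Named genes are the members, listed neighbours and the 3 nearest profiles of each member; Asl was chosen after its value was seen.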

Additional observations from a re-analysis of the deposited data

Results flagged for a closer look

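The effect of DN-MCU differed between adult and neonatal hearts for 3 probe sets, by a test of the difference itself in limma. For Asns the adult effect exceeded the neonatal one by 3.81 (1451095_at, SE 0.56, adjusted p = 0.0133) and 4.13 (1433966_x_at, SE 0.59, adjusted p = 0.0113). For Aldh18a1 it did so by 2.49 (1437325_x_at, SE 0.44, adjusted p = 0.0326). All 3 adult DN-MCU arrays lay above all 3 WT arrays in each case. With a replicate block within each age none of the 3 sets passed (limma adjusted p of 0.0612, 0.0779 and 0.0925, in the same order). The Aldh18a1 call was also lost when any of 8 of the 12 arrays was left out, and that of Asns 1451095_at for 2 of them.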

How the results depend on the processing

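Of the recomputed values of single member probe sets, 198 of 221 kept direction and call for the adult effect and 200 of 206 for the neonatal effect. For the difference of effects 278 of 311 did so, and for WT age 212 of 221. In the main fits 12 of the 15 sets had no call in adults, 15 in neonates and 12 for the difference of effects. For these comparisons the shares mostly count sets that stayed without a call. Aldh18a1 1437325_x_at kept its adult call in 7 alternatives and lost it in 8. Counts of passing probe sets are not part of the shares and are given next. The count of member probe sets passing in adults (3) was 7 with array weights. With all 12 arrays in 1 fit, whose shared spread understates the adult error, it was 8. It was 1 with a replicate block within each age, and 2 to 6 without 1 array. For the difference of effects (3) it was 7 with array weights and 7 without the 2 arrays that stand apart. It was 0 with a replicate block within each age and 1 to 6 without 1 array. The counts of 7 and 8 include Gpt2 1439029_at, which lay under the filter level in every neonate. Over all probe sets the adult count (112) was 74 with no filter, 964 with array weights, 1152 with all 12 arrays, 16 with the replicate block, 57 without the 2 arrays and 17 to 175 without 1 array. The neonatal count (1) was 2 with equal array medians, a stricter filter, a mean-variance trend or array weights, 4 with all 12 arrays, 0 with no filter or with the replicate block, and 0 to 3 without 1 array. The count for the difference (190) was 1216 with array weights, 1112 without the 2 arrays, 39 with the replicate block in each age, 71 with it in neonates only (an alternative chosen after seeing the data) and 70 to 636 without 1 array. The WT age count (12285) was 7917 with a stricter filter, which tests fewer probe sets, and 9908 to 13966 without 1 array. The 1 member call lost for WT age was Gpt2 1439029_at, with limma adjusted p of 0.0630 with equal array medians, 0.104 with no filter, 0.0573 without the 2 arrays and 0.00972 to 0.125 without 1 array. Neighbouring genes passing (0) were 1 in adults and 2 in the difference with array weights, 3 in the difference without the 2 arrays, and 0 to 1 without 1 array. With the replicate block within each age, the limma adjusted p of the adult effect was 0.0627 for Asns 1433966_x_at and 0.205 for Aldh18a1 1437325_x_at, and of the difference 0.0612 for Asns 1451095_at, 0.0779 for Asns 1433966_x_at and 0.0925 for Aldh18a1 1437325_x_at; without a filter, Aldh18a1 1437325_x_at had 0.0948 in adults and 0.0719 for the difference. Signs turned only for values that passed in neither setting: the neonatal Gpt2 1439029_at was 0.00067 after quantile normalization and -0.13 to 0.15 without 1 array, the Gpt2 1434542_at difference of effects 0.031 without the 2 arrays and its adult effect -0.14 to 0.31 without 1 array. Without 1 array the neonatal Glul effects ran from -0.0089 to 0.15 (1426236_a_at) and -0.054 to 0.29 (1426235_a_at), their differences of effects from -0.046 to 0.50 and -0.016 to 0.51, and Aldh18a1 1437620_x_at between WT ages from -0.45 to 0.12. The cause was not tested for any of these.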
